A study of Mus musculus with 32 samples.

Results

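The elastic fibre genes described here are 10 genes that encode elastin, the microfibrils around it and the proteins that assemble the fibre. They are Eln, Fbn1, Fbn2, Fbln5, Efemp2, Ltbp4, Mfap2, Mfap4, Mfap5 and Emilin1. The list was chosen by gene name, all 10 names were found, and each matched 1 of 46165 gene records, of which 18853 had at least 1 exon read in the 32 libraries. All 10 passed the filter on low counts at both ages.

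The libraries came from whole lungs of C57BL/6 mouse pups in a study of control interventions used in neonatal experiments. Each of 8 groups held 4 libraries. Pups killed on day 14 after birth had received daily saline by intraperitoneal injection (25 µl per g, day 1 to day 13), a scrambled antagomiR control at 10 mg per kg on days 1 and 3 (scrambled 1 or scrambled 2, each dissolved in nuclease-free water), that water alone at 10 µl per g on the same days, or nothing (untreated). Pups killed on day 6 had received 0.4 mg tamoxifen in 25 µl of the oil Miglyol on days 1 and 2, 25 µl of Miglyol alone, or 25 µl of saline. Pentobarbital was used to kill pups on day 6 and isoflurane on day 14, and the lungs were perfused before RNA extraction. Age can therefore not be told apart from treatment, anaesthetic and time since injection. Antagomirs are antisense oligonucleotides against microRNAs, and a scrambled one has no intended target. The labels do not say that replicates of a group came from different litters, so p-values measure the spread between these libraries.

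An elastic fibre has a core of cross-linked elastin, secreted as tropoelastin, inside a sheath of fibrillin microfibrils. Fibulins and latent TGF-beta binding proteins bring tropoelastin to the microfibrils, lysyl oxidases cross-link it, and microfibril-associated glycoproteins and emilins sit on the fibre. In the mouse lung most of this material is laid down after birth, while new septa divide the air spaces, and myofibroblasts and smooth muscle are known as main sources.

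The libraries held 7918537 to 12443221 exon reads, and the members' total exon counts ran between 202 (Fbn2) and 117277 (Eln) per library, so no member's count was near 0. Values below are CPM (exon counts scaled to the library's TMM-corrected total) unless TPM, which also divides by exon length, is named. Of the members' exon reads, 99.3% or more mapped uniquely. The antisense record Gm30003 overlaps Eln by 211 bases and had 0 exon reads in every library. Myofibroblast, smooth muscle, epithelial and endothelial marker lists were present in every library with no marker at 0. Water replicate 3 stood apart in markers of tissue next to the lung: its summed level was 222 CPM for skeletal muscle, 250.1 CPM for adipose tissue and 92.6 CPM for cartilage, against day 14 medians of 8.25, 6.01 and 3.00 CPM.

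The following 3 promoters are shown because they belong to both fibulin-family members, which were lower at day 14, and to Fbn1, which did not pass the test. Each is the stretch before the RefSeq start site on GRCm38.p6, cut where the deposited gene record begins and written 5′ to 3′ on the gene's strand. Capitals mark the GC box (GGGCGG, searched on both strands, so also CCGCCC).
Fbln5, chr12:101819131-101819369, minus strand: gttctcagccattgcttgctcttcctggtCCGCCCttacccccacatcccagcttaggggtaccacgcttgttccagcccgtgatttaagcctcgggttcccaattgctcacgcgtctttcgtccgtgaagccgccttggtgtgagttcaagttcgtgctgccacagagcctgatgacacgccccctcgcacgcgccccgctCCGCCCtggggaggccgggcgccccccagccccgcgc
Efemp2, chr19:5473696-5473945, plus strand: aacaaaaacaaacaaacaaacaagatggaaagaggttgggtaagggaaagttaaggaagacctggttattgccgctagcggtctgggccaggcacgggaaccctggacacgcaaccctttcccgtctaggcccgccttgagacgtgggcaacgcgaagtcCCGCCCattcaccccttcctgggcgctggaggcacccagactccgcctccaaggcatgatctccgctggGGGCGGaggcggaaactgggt
Fbn1, chr2:125506486-125506688, minus strand: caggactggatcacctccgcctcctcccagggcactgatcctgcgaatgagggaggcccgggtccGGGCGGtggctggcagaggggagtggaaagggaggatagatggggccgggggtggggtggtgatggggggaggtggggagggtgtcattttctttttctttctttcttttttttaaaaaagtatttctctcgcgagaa
RefSeq promoters were found for 6 of the 10 members (Fbn1, Fbln5, Efemp2, Ltbp4, Mfap2 and Emilin1), with 12 start sites in all. In the 250 bases before the start, the 3 sites shown held 2, 2 and 1 GC boxes. Over the 12 windows, some of which overlap, 9 held at least 1 GC box, and the second Fbln5, second Mfap2 and Emilin1 sites held 0. Of all 32851 mouse promoters of that length, 32.74% held a GC box. The GC content was 49.6 to 79.2% in the 12 windows, against a median of 52.4% over all promoters (quartiles 45.2 and 61.2%). The part of GC content in the GC box matches was not tested. The TATA box letters TATAAA (12.37% of all promoters), the AP-1 letters TGANTCA (6.749%) and the SMAD palindrome GTCTAGAC (0.1674%), each searched on both strands, were in 0 of the 12 windows. The M-CAT letters GGAATG (12.64%) were in 1, the second Mfap2 site. These matches describe letters in a window and no binding.

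Among the members, elastin, the core protein, had the largest rise with age, and Fbn2 had a fall of similar size (log2 fold change −1.40). Eln (gene 13717, chr5:134702596-134747367, minus strand) rose at day 14. In the day 14 groups it had 10926, 10932, 11185 and 10475 CPM in daily saline lungs, 10471, 9983, 10685 and 10840 in scrambled 1 lungs, and 10363, 8472, 8646 and 12970 in scrambled 2 lungs. It had 8602, 8659, 10259 and 8685 CPM in water lungs and 10009, 11509.5, 10853 and 11223 in untreated lungs. In the day 6 groups it had 4193, 4404, 3762 and 3446 CPM in tamoxifen lungs, 3720, 3573, 4075 and 4002 in Miglyol lungs, and 3667, 3866, 3074 and 3163 in saline lungs. Every day 14 library lay above every day 6 library. The means were 10287 ± 1176 CPM at day 14 and 3745 ± 398 CPM at day 6 (SD, n = 20 and 12). That is 2.75-fold, or 1.46 on the log2 scale, with an SE of 0.0533 and an adjusted p of 2.4e-22 by edgeR's quasi-likelihood test.

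Counted over the 10 members, 4 were higher and 4 were lower at day 14, and Fbn1 and Mfap2 did not pass the threshold (edgeR adjusted p under 0.05). Of all 14406 genes tested, 61.4% passed in this comparison, 30% higher and 31.3% lower, so a count of 8 in 10 stands against a high background. The median log2 fold change was −0.01 over the members and −0.01 over all genes. In 5 members the ranges of the 2 ages did not overlap (Emilin1 only by a narrow margin), against 9.45% of all genes tested.

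**Figure D1:**
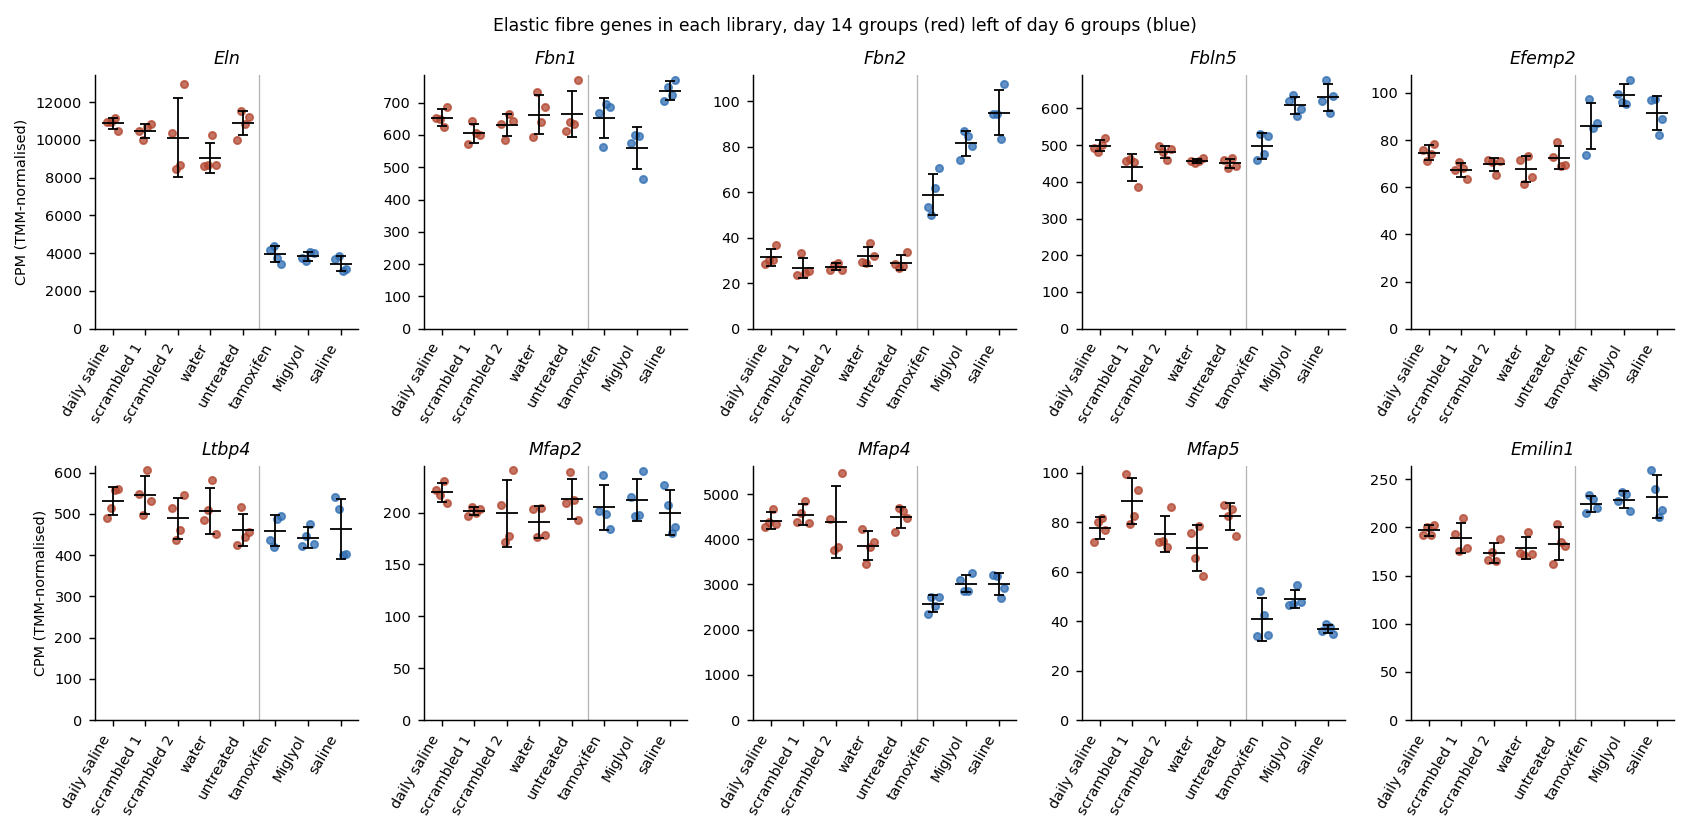
Level of each elastic fibre gene in CPM (vertical axes, from 0) in the 8 groups (horizontal axes). Points are libraries, black bars are the mean and SD of 4, day 14 groups are red and day 6 groups blue. Eln, Mfap4 and Mfap5 lie higher and Fbn2 and Emilin1 lower in every day 14 library than in any day 6 library.

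The fibrillins, which polymerise into the microfibril scaffold, differed from each other. Fbn2 (gene 14119, on chromosome 18), the fibrillin best known from developing tissue, fell at day 14. It had 23.6 to 37.9 CPM in the day 14 libraries (median 28.7), against 50.1 to 107.5 CPM in the day 6 libraries (median 81.9). The ranges did not overlap, and the log2 fold change was −1.40 (SE 0.0540, edgeR adjusted p = 5.1e-21), with means of 29.3 ± 3.81 and 78.5 ± 17.3 CPM. Fbn1 (gene 14118, chr2:125300594-125506485, minus strand), the main fibrillin of mature microfibrils, had 570.4 to 769 CPM at day 14 and 464 to 772 CPM at day 6. Its log2 fold change was −0.01 with a 95% interval of −0.09 to 0.07 (edgeR adjusted p = 0.904). This is an average over day 6 groups that differed, with Fbn1 means of 559 (Miglyol), 653 (tamoxifen) and 737 CPM (saline). Daily saline lungs at day 14 (626 to 686 CPM) lay below saline lungs at day 6 (704 to 772 CPM) and above Miglyol lungs (464 to 600 CPM). Untreated lungs at day 14 (613 to 769 CPM) overlapped saline lungs at day 6. Per exon length, Fbn1 had 17.5 to 26.4 times the TPM of Fbn2 in the day 14 libraries and 5.99 to 12.9 times in the day 6 libraries, and these ranges did not overlap.

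Among the microfibril-associated glycoproteins, which bind fibrillin, Mfap5 and Mfap4 rose. Mfap5 (gene 50530, chr6:122513380-122529290, plus strand) had 58.3 to 99.5 CPM at day 14 (median 78.9) and 33.9 to 54.6 CPM at day 6 (median 40.5). The log2 fold change was 0.91 (SE 0.0550, edgeR adjusted p = 9.6e-16). Mfap4 (gene 76293, chr11:61485378-61488706, plus strand), a fibrinogen-related protein that binds elastin and fibrillin, had 3448 to 5468 CPM at day 14 and 2339 to 3244 CPM at day 6. Neither gene's ranges overlapped between the ages, and the Mfap4 log2 fold change was 0.60 (SE 0.0452, edgeR adjusted p = 9.4e-14). Mfap2 (gene 17150, chr4:141010424-141015984, plus strand), the close relative of Mfap5, averaged 205 ± 19.5 CPM at day 14 and 206 ± 19.9 CPM at day 6, with a log2 fold change of −0.01 (95% interval −0.10 to 0.08, edgeR adjusted p = 0.890). Mfap2 had 1.42 to 2.20 times the TPM of Mfap5 in day 14 libraries and 2.59 to 4.501 times in day 6 libraries, so here too the balance of a pair of relatives differed without overlap.

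The assembly proteins differed less. Fbln5 (fibulin 5, gene 23876, chr12:101746565-101819130), which tethers tropoelastin to microfibrils, fell at day 14, with 386 to 519 CPM, against 459.7 to 678 CPM at day 6 (log2 fold change −0.31, SE 0.0288, edgeR adjusted p = 2.2e-11). Efemp2 (fibulin 4, gene 58859, chr19:5473960-5481854), which brings lysyl oxidase to tropoelastin, also fell, with 61.5 to 79.4 CPM at day 14 and 73.8 to 105.6 CPM at day 6 (log2 fold change −0.39, SE 0.0357, edgeR adjusted p = 1.5e-11). In both fibulins the ranges overlapped, in the tamoxifen libraries: the lowest day 6 value was tamoxifen replicate 1 for each. Ltbp4 (gene 108075, chr7:27305140-27339709, minus strand), the latent TGF-beta binding protein that cooperates with fibulins 4 and 5, rose slightly, with means of 506 ± 50.7 CPM at day 14 and 455 ± 45.4 CPM at day 6 (log2 fold change 0.15, SE 0.0471, edgeR adjusted p = 0.0058). This call rested on which groups were compared. Untreated lungs at day 14 against saline lungs at day 6 gave −0.01 (edgeR adjusted p = 0.946), and daily saline against saline gave 0.19 (edgeR adjusted p = 0.086). Emilin1 (gene 100952, chr5:30913381-30921279, plus strand), a glycoprotein at the border of elastin and microfibrils, fell (log2 fold change −0.31, SE 0.0342, edgeR adjusted p = 9.7e-10). It had 162.5 to 209.7 CPM at day 14 and 210.5 to 259 CPM at day 6, ranges set apart only by a narrow margin.

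On the TPM scale, 2 genes stood far above the rest at both ages. Mfap4 averaged 6313 ± 558 TPM and Eln 6229 ± 610 TPM at day 14, while at day 6 Mfap4 averaged 4129 ± 438 and Eln 2239 ± 190.4 TPM. The other 8 members averaged 7.14 (Fbn2) to 218 TPM (Mfap2) at day 14 and 19.0 (Fbn2) to 238 TPM (Fbln5) at day 6. Mfap4 and Eln overlapped at day 14 (5346 to 7485 and 5231 to 7385 TPM) but not at day 6 (3354 to 4758 and 1952 to 2501 TPM). Summed over the 10 members, the level was 16806 ± 1626 CPM at day 14 and 8942 ± 491 CPM at day 6. Eln made up 61.1 ± 1.495% of that sum at day 14 and 41.9 ± 3.51% at day 6.

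**Figure D2:**
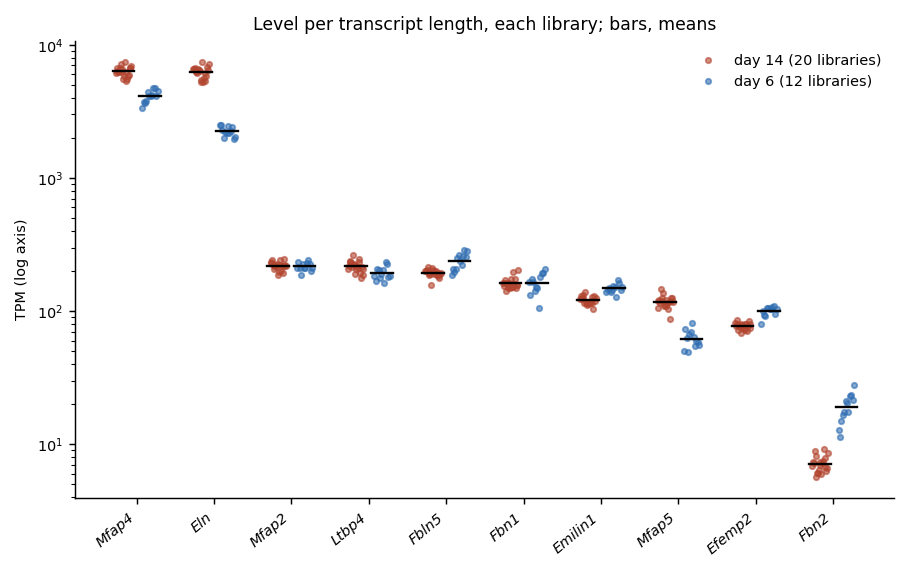
Level per exon length in TPM (log axis) of each elastic fibre gene in the 20 day 14 libraries (red, left) and the 12 day 6 libraries (blue, right); bars are means. Mfap4 and Eln lie at 1952 TPM or higher in every library, and Fbn2 is the lowest member at both ages.

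Intron reads, which come largely from unspliced transcripts, were counted separately by the authors and were fitted on their own. Intron CPM were scaled to the exon totals, but the intron fold changes came from a fit scaled to intron totals. The CPM means and the fold changes therefore need not match. Of 14881 genes tested, 44.2% passed at day 14 against day 6, 22.7% higher and 21.5% lower. In the members, 2 were higher (Eln and Mfap5) and 6 were lower. Eln averaged 409 ± 114 intron CPM at day 14 and 175 ± 27.1 at day 6 (log2 fold change 1.32, SE 0.0660, edgeR adjusted p = 2.7e-21). Mfap5 intron reads rose by 0.51 on the log2 scale (SE 0.0689, edgeR adjusted p = 4.5e-08), and those of Fbn2 fell by 1.09 (SE 0.109, edgeR adjusted p = 1.8e-11). The Fbn2 value rests on few reads, with 4 to 29 intron reads per library at day 14 and 27 to 89 at day 6. For Eln, Mfap5 and Fbn2, exon and intron reads moved the same way. So did those of Fbln5, Efemp2 and Emilin1, whose intron reads fell by 0.57, 0.51 and 0.35 on the log2 scale.

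Mfap2, Mfap4 and Ltbp4 did not follow that pattern. Mfap2 intron reads fell by 0.23 on the log2 scale (SE 0.0878, edgeR adjusted p = 0.0301), beside −0.01 in exon reads. That call was kept in 27 of 32 fits that left out 1 library. Mfap4 had 40.9 ± 7.93 intron CPM at day 14 and 47.2 ± 5.79 at day 6, a log2 fold change of −0.08 (95% interval −0.20 to 0.03, edgeR adjusted p = 0.241), beside 0.60 in exon reads. Ltbp4 intron reads fell, with 18.0 ± 4.37 CPM at day 14 and 22.7 ± 3.29 CPM at day 6 (log2 fold change −0.23, SE 0.0591, edgeR adjusted p = 0.0014), beside 0.15 in exon reads. The size of that fall differed by group. Group means ran from 12.6 (daily saline) to 22.1 CPM (water) at day 14 and 21.9 (Miglyol) to 23.8 CPM (tamoxifen) at day 6. The difference between the readouts was tested as the log2 ratio of exon to intron reads per library, centred on the median gene, in a limma fit added after the values were seen. By that ratio 24.4% of 11646 genes passed (11.1% higher and 13.3% lower), and 5 members were higher at day 14 while none was lower. The ratio rose by 0.67 for Mfap4 (SE 0.0673, limma adjusted p = 4.5e-08), 0.40 for Mfap5, 0.37 for Ltbp4, 0.25 for Fbln5 and 0.21 for Mfap2. The Mfap2 call was lost in 20 of 32 fits that left out 1 library. For Eln the ratio difference was 0.13 (limma adjusted p = 0.117) and for Fbn2 −0.32 (limma adjusted p = 0.0747). The share of intronic reads over all genes was 12.6 ± 1.89% at day 14 and 13.8 ± 1.41% at day 6. Its group means were 9.97% in daily saline lungs, 12.3 to 14.0% in the other day 14 groups and 13.1 to 15.03% in the day 6 groups. The part of this share, and of the daily saline group, in these ratios beyond the centring was not tested.

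**Figure D3:**
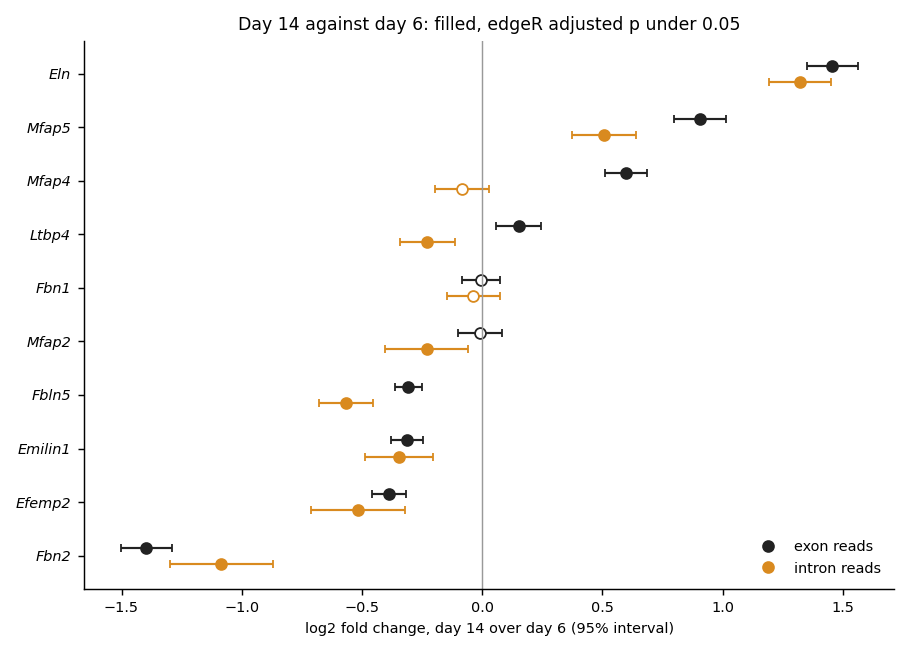
Log2 fold change of each elastic fibre gene at day 14 over day 6 (horizontal axis, with 95% interval) in exon reads (black) and intron reads (orange); filled points passed an edgeR adjusted p of 0.05. Eln is at 1.46 and 1.32, while Mfap4 is at 0.60 in exon reads and −0.08 in intron reads.

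Markers of other cell types also differed between the ages in some lists. Of all genes tested, 61.4% passed (30% higher and 31.3% lower), so the counts below stand against a high background. In bulk lung RNA, fewer cells of a type and less RNA per cell cannot be told apart. Summed smooth muscle markers (6 genes) were 1029 to 1521 CPM at day 14 and 1454 to 2029.5 CPM at day 6, with 4 of 6 lower and 1 higher. Myofibroblast markers (6 genes) were 1421 to 1857 CPM at day 14 and 1617 to 1953 CPM at day 6, with 4 of 6 higher and 2 lower. Fibroblast markers (7 genes) were 3242 to 3944 CPM at day 14 and 2036.5 to 2592.5 CPM at day 6, with 4 higher and 2 lower. Endothelial markers (4 genes) were 2422 to 3125 CPM at day 14 and 1791 to 2341 CPM at day 6, with 4 higher. Mesothelial ones (4 genes) were 77.8 to 183 CPM at day 14 and 162 to 249 CPM at day 6, with 3 lower and 0 higher. Heart muscle markers (4 genes) were 29.7 to 369.9 CPM at day 14 and 231 to 397 CPM at day 6. Of these 4, 1 was higher and 3 were lower. Summed macrophage markers (3 genes) were 65.4 to 468 CPM at day 14 and 23.8 to 105.4 CPM at day 6. The 3 genes did not move together, since 1 was higher and 2 were lower (median log2 fold change −0.47). Of 5 epithelial markers, 2 were higher and 1 lower. Of 4 skeletal muscle markers tested, 1 was higher and 1 lower. Of 4 adipose markers 3 were higher, of 2 thymus markers tested 2 were higher, and of 3 cartilage markers tested 0 passed. The part of all these markers in the members' differences was not tested.

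Genes that work with elastic fibres were counted in 6 further lists of 38 genes, 37 of which were tested at day 14 against day 6. In all, 20 were higher and 12 lower, where 61.4% of all genes passed (30% higher and 31.3% lower). Of 5 lysyl oxidases, which cross-link tropoelastin, 3 were higher and 2 lower: Lox rose by 0.43 (SE 0.0366) and Loxl1 by 0.35 on the log2 scale, while Loxl2 fell by 0.35 and Loxl3 fell by 0.20. Of 8 related fibulins, LTBPs and emilins, 4 were higher and 4 lower, led by Ltbp2 (0.50, SE 0.0375), Fbln1 (−0.45), Efemp1 (0.43) and Emilin2 (−0.84). Of 7 fibrillin-binding ADAMTS and ADAMTS-like genes, 5 were higher and 1 (Adamts6) lower.

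Adamtsl2, whose product binds fibrillin 1 and LTBP1, had the largest change in these lists, with 160 ± 23.7 CPM at day 14 and 34.3 ± 15.1 CPM at day 6 (log2 fold change 2.27, SE 0.109, edgeR adjusted p = 6.6e-16, no overlap). Adamts10 (0.70), Adamtsl4 (0.62) and Adamtsl5 (0.41) also rose. Of 6 elastin-degrading proteases tested, 3 were higher and 3 lower, including Mmp2 (0.28), Mmp14 (−0.14), Mmp9 (−0.84) and Ctsk (0.53). Of 5 tropoelastin chaperones and binding proteins, Neu1 (0.17) and Glb1 (0.12) were higher and Fkbp10 (−0.12) lower. Of 6 TGF-beta ligands and receptors, 3 were higher and 1 lower: Tgfb3 rose by 0.63 (SE 0.0284, edgeR adjusted p = 6.8e-20), Tgfbr3 by 0.32 and Tgfbr2 by 0.30, and Tgfb2 fell by 0.15.

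**Figure D4:**
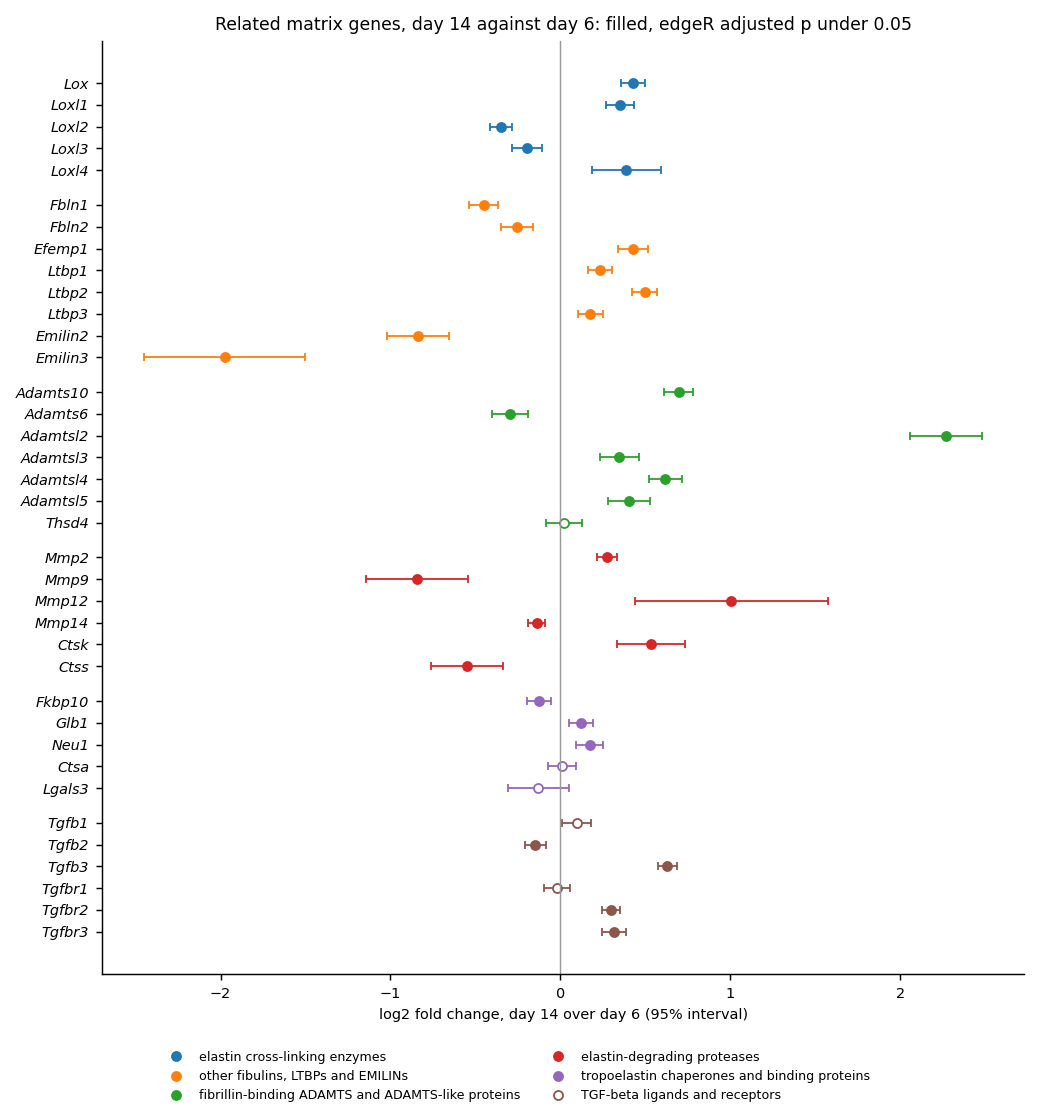
Log2 fold change at day 14 over day 6 (horizontal axis, with 95% interval) of 37 genes related to elastic fibres, coloured by list; filled points passed an edgeR adjusted p of 0.05. Adamtsl2 lies highest at 2.27 and Emilin3 lowest at −1.98.

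Within day 6, the effect of tamoxifen was read against its solvent. In tamoxifen against Miglyol, 2 of the 10 members passed, both lower, where 5.68% of 14107 genes passed and 1.96% were lower, with 3.71% higher. Fbn2 had 53.5, 50.1, 61.7 and 70.6 CPM in tamoxifen lungs, against 74.2, 86.9, 84.9 and 80.2 CPM in Miglyol lungs. All 4 tamoxifen libraries lay below all 4 Miglyol libraries, and Fbn2 fell by 0.46 on the log2 scale (SE 0.0972, edgeR adjusted p = 0.0092). Fbln5 had 459.7, 529.9, 475 and 524 CPM in tamoxifen lungs, against 619, 636, 580.5 and 597 CPM in Miglyol lungs, again without overlap (log2 fold change −0.29, SE 0.0647, edgeR adjusted p = 0.0129). Mfap4 had 2578 ± 188 CPM in tamoxifen lungs and 3015 ± 193 CPM in Miglyol lungs, also without overlap, but its log2 fold change of −0.22 did not pass (edgeR adjusted p = 0.0942), while it passed with DESeq2 and with limma-voom. Eln did not pass (0.04, 95% interval −0.13 to 0.22). Without tamoxifen replicate 1 only Fbn2 passed, and without tamoxifen replicate 2 there were 6 members past the threshold (Fbn1 higher, and Fbn2, Fbln5, Efemp2, Mfap4 and Mfap5 lower).

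Of 37 related genes tested in the same comparison, 7 were higher and 0 lower. They included 3 of 6 elastin-degrading proteases, all made by macrophages or neutrophils among other cells: Mmp9 (25.5 ± 10.4 CPM with tamoxifen, 7.07 ± 1.502 with Miglyol, log2 fold change 1.85), Mmp12 (1.45) and Ctss (1.01). Lgals3, which codes for galectin 3 (0.97), Emilin2 (0.71), Adamtsl4 (0.30) and Tgfbr2 (0.23) were also higher. Macrophage markers rose beside them, 3 of 3 tested genes, with sums of 58.9 to 105.4 CPM in tamoxifen lungs and 33.4 to 34.9 CPM in Miglyol lungs. The part of macrophage content in these values was not tested.

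In Miglyol against saline, where 10.6% of 14107 genes passed (3.33% higher and 7.29% lower), 2 members did. Fbn1 had 575.8, 600.3, 596 and 464 CPM in Miglyol lungs, against 704, 748.5, 724 and 772 CPM in saline lungs, and fell by 0.40 on the log2 scale (SE 0.0822, edgeR adjusted p = 0.0103). Mfap5 had 46.6, 47.0, 54.6 and 47.7 CPM in Miglyol lungs, against 36.0, 38.7, 37.5 and 34.8 CPM in saline lungs, and rose by 0.41 (SE 0.113, edgeR adjusted p = 0.0300). In both genes the groups did not overlap. The intronic share was 13.1 ± 1.25% in Miglyol lungs and 15.03 ± 0.902% in saline lungs, and with that share as a covariate neither gene passed (Fbn1 −0.25, adjusted p = 0.211, and Mfap5 0.26, adjusted p = 0.457), while 2 genes in all did. Leaving out any of Miglyol replicates 1, 3 and 4 or saline replicates 1 to 4 also ended the Mfap5 call. Of 37 related genes, Adamtsl5 (0.43) was higher and Loxl2 (−0.23), Adamtsl3 (−0.34), Thsd4 (−0.28) and Tgfbr2 (−0.23) were lower.

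Tamoxifen against saline shares its libraries with both comparisons above and sets drug and solvent together against saline. There 23.7% of genes passed (11.3% higher and 12.3% lower), and 3 members were lower. Fbn2 averaged 59.0 ± 9.17 CPM with tamoxifen and 95.04 ± 9.80 CPM with saline (log2 fold change −0.69, SE 0.0972, edgeR adjusted p = 0.00019). Fbln5 fell by 0.34 on the log2 scale (SE 0.0647, edgeR adjusted p = 0.0014). Mfap4 was at −0.22 with overlapping ranges (edgeR adjusted p = 0.0399), and that call was lost in 5 of 8 fits that left out 1 library (tamoxifen replicate 1 or 3, or saline replicate 1, 2 or 4). It was also lost with the replicate block (edgeR adjusted p = 0.0711), with the 8 compared libraries alone (0.0705), with all 32 libraries in one fit (0.0535) and with the looser filter of at least 1 exon read (0.0579). Across the 3 day 6 groups, Fbn2 means were therefore ordered tamoxifen, Miglyol, saline, and only the last neighbours overlapped in range. Of 37 related genes, 10 were higher and 8 lower, led in each list by Emilin2 (1.13), Adamtsl3 (−0.45), Mmp9 (2.19), Neu1 (0.47) and Tgfb2 (−0.22).

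**Figure D5:**
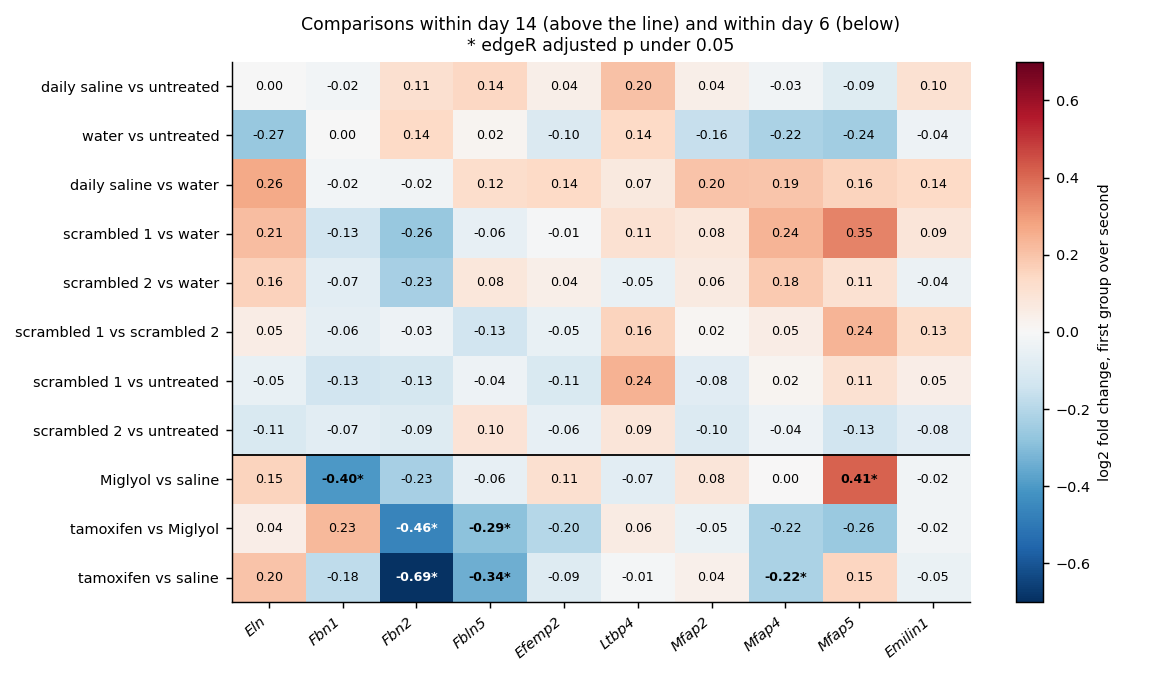
Log2 fold change of each elastic fibre gene (columns) in the 11 comparisons between groups of the same age (rows, first group over second); day 14 lies above the line and day 6 below. An asterisk marks an edgeR adjusted p under 0.05, which occurs 7 times, all at day 6.

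Within day 14, none of the 10 members passed with edgeR in any of 8 comparisons, and 20 of the 80 tests had an unadjusted p under 0.05, against 9.71% of the tests of all genes in these comparisons, which share groups. The log2 fold changes lay between −0.27 (Eln, water against untreated) and 0.35 (Mfap5, scrambled 1 against water). Few genes of any kind passed: 0.233% of 14179 for daily saline against untreated, 0.0494% for water against untreated, 2.74% for daily saline against water, 0.12% for scrambled 1 against water, 0.205% for scrambled 1 against scrambled 2 and 0.303% for scrambled 1 against untreated. For scrambled 2, 0% passed against water and 0% against untreated, with 755 and 936 genes at an unadjusted p under 0.05, 5 and 2 genes with DESeq2, and 0 and 1 with limma-voom.

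The nearest to the threshold was Mfap5 in scrambled 1 against water, with 99.5, 79.3, 82.6 and 93.0 CPM in scrambled 1 lungs and 75.8, 65.5, 78.5 and 58.3 CPM in water lungs. Its log2 fold change was 0.35 (95% interval 0.18 to 0.52, edgeR adjusted p = 0.104), and it passed with DESeq2. In daily saline against water, Eln averaged 10879 ± 296 CPM in daily saline lungs and 9051 ± 806 CPM in water lungs, a log2 fold change of 0.26 (95% interval 0.08 to 0.45, edgeR adjusted p = 0.142), and it passed with limma-voom. In that comparison 4 members (Eln, Fbln5, Mfap2 and Mfap4) did not overlap between the groups, against 11.3% of all genes, and 6 had an unadjusted p under 0.05, against 17.7% of all genes. The intronic share also differed without overlap, at 9.97 ± 1.04% in daily saline lungs and 14.0 ± 1.43% in water lungs. With that share as a covariate 0 members passed, as without it. Its part in the size of these differences, and of those in related genes below, was not tested. The water group had the lowest day 14 mean of Eln, Mfap2, Mfap4 and Mfap5. Without water replicate 3, the library with the high neighbouring-tissue markers, 0 members passed in each of the 4 comparisons of water with another day 14 group, and 8 passed between day 14 and day 6, as with it. Among related genes, Lox (0.23), Loxl2 (0.27) and Tgfb3 (0.31) rose in daily saline against water, and Loxl2 fell in scrambled 1 against scrambled 2 (−0.33) and against untreated (−0.37).

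Members also varied between libraries of the same group, by a coefficient of variation of 4.97% (Fbln5) to 11.8% (Fbn2). After the group means were taken out, the 45 pairs of members had Pearson correlations of −0.53 to 0.78 over 32 libraries, with a median of 0.26. These are descriptions, since all values of a library share its depth and RNA. Eln ran closest to Mfap2 (r = 0.78, rank 13 of 13756 genes) and Mfap4 (0.64), then Ltbp4 (0.55), Emilin1 (0.54), Mfap5 (0.47) and Efemp2 (0.32), and was near 0 or below with Fbln5 (0.04), Fbn1 (−0.15) and Fbn2 (−0.24). The genes most like Eln by that measure were Rasip1 (0.87), Fzd2 (0.85), Ptov1 (0.84), Ypel3, Sqstm1, Emc4, Capns1, Mrpl4, Exoc3l and Cxxc1 (0.78). Over the 8 group means, which mostly carry the age difference, they included Ppp1r2, Pmp22, C1qtnf2, Rbpms, Syn2, Sod3, Elovl5, Tlr3 and Tmem100 (r = 0.99 or more).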

How the data were processed

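Whole-lung RNA of 32 mouse pups was sequenced with a stranded polyA library kit, per the labels' protocols. Per the submitters' processing notes, bcl2fastq 2.0 did the demultiplexing. For aligner, build and strand setting, what was used is not given in the sources used here. Per gene, the deposited tables give counts of exon and intron reads, and TPM and RPKM values computed by the authors, per the file headers. The RPKM values were not tested. Coordinates are those of the files.

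Groups came from the sample labels. Total exon counts were fitted in R 4.3.3 with edgeR 4.0.16 (filterByExpr, TMM, robust quasi-likelihood F test), all groups of an age together for comparisons within it, and all 32 libraries for day 14 (mean of 5 groups) against day 6 (mean of 3). P-values were Benjamini-Hochberg adjusted over all genes tested, with 0.05 as threshold and no fold threshold. SE is derived from the fold change and F, and 95% intervals are normal. Intron counts were fitted likewise, scaled to their own TMM-corrected totals, while intron CPM used the exon totals. The exon to intron ratio used limma 3.58.1 on log2 values (pseudocount 0.5, mean of at least 10 reads). Fits were tested on simulated data. The members and lists were chosen with earlier results of these data known. All members are named, with up to 4 genes of each related list by smallest p and the 10 genes most like Eln (mean of at least 1 CPM; predicted names passed over), except for 1 gene that is not reported here. Promoters are from RefSeq. Alternatives were DESeq2 1.42.0, limma-voom, RLE scaling, unique reads, another filter, other libraries in the fit, covariates (Xist, intronic share), the replicate block, and leaving out each library in turn. Same-numbered replicates did not deviate together in all 4 pairs (correlation above 0.1) of any comparison, so they were not treated as pairs in the main fits. In daily saline against untreated and in scrambled 2 against water, 3 of 4 pairs did. The highest correlation was 0.47, in water against untreated, so shared litters are not excluded. Replicate pairs of a group differed by more than sampling noise (chi-square per gene 2.38 to 16.6).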

Additional observations from a re-analysis of the deposited data

Results flagged for a closer look

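Of 80 sets of 4 libraries (10 members in 8 groups), 6 held a library far from the other 3, and chance alone gives about 1 in 20. Eln was at 10259 CPM in water replicate 3, against 8602 to 8685 CPM in the other water lungs, and Emilin1 at 196 CPM in the same library, against 172 to 173 CPM. That library also had the highest skeletal muscle, adipose and cartilage marker sums (222, 250.1 and 92.6 CPM), whose part was not tested. Fbn1 was at 769 CPM in untreated replicate 4, against 613 to 639 CPM. Fbln5 was at 386 CPM in scrambled 1 replicate 4, against 453 to 461 CPM. Mfap5 was at 54.6 CPM in Miglyol replicate 3, against 46.6 to 47.7 CPM, and at 86.0 CPM in scrambled 2 replicate 4, against 70.0 to 72.4 CPM.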

How the results depend on the processing

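Of 15 member values past the threshold in exon counts, 10 kept their direction and their call under every alternative run; of the 8 for day 14 against day 6, 7 did, the exception being Ltbp4, at −0.00994 for untreated against saline. The number of members past the threshold for day 14 against day 6 was 7 to 9 under the alternatives. It was 8 in all 32 fits that left out 1 library. Intron reads, with 8 in the main fit, gave 8 to 9 under the alternatives and 7 to 8 in fits that left out 1 library. In such fits the ratio gave 4 to 6. With the intronic share as a covariate, Miglyol against saline gave 0 members and tamoxifen against Miglyol gave 4. Daily saline against water gave 1 (Eln) with limma-voom, and scrambled 1 against water gave 1 (Mfap5) with DESeq2; the cause was not tested. Leaving out 1 library gave 1 to 2 members for Miglyol against saline, 1 to 6 for tamoxifen against Miglyol and 2 to 4 for tamoxifen against saline. With the replicate block the counts were 2, 2 and 2 for these 3 comparisons, where the first 2 gave 2 and the last gave 3 (Mfap4 being the one lost) without it, 8 for day 14 against day 6 in exon and 8 in intron reads, and 0 in all 8 day 14 comparisons. Deposited TPM gave log2 ratios of the age means between −1.41 (Fbn2) and 1.48 (Eln). SEs of 0.0538 to 0.109 at day 14 limit what could be detected there.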
